A study of Mus musculus with 8 samples.

Results

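Fkbp5, the metallothionein Mt2 and 6 other genes that glucocorticoids are known to induce or that belong to the metallothionein family were followed in the hearts of female and male mice at 8 and 2 months of age. The genes were taken by symbol: Fkbp5 and Mt2, plus Mt1, Mt3, Tsc22d3, Sgk1, Zbtb16 and Cdkn1a where the array held them. It held all 8, each with 1 probe, and all 8 passed the filter on missing values, among 7812 rows that passed it in all. Per the labels, C57BL/6 mice of 4 groups were used, namely 8-month females, 8-month males, 2-month females and 2-month males, and no genetic change or treatment is named. Whole-heart RNA of 6 animals per group was pooled, and each of the 8 cDNA arrays set the female pool against the male pool of 1 age in the dyes Cy3 and Cy5. The 4 arrays of an age carry the same pools and are technical, so n is 1 pair of pools per age and 2 pairs in all. Values are log2 ratios of female over male. At each age the arrays of either dye orientation were averaged first and the 2 averages were given equal weight, and an SD over 4 arrays is technical. No array set one age against the other, so the ages can be compared only in the size of the female over male ratio. Replicates 1 and 2 of 8 months stood apart from the other 6 arrays, with ratios that bent along the probe number, and 8-month results are given with and without them.

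Glucocorticoids bind the glucocorticoid receptor, which is held by Hsp90 and its co-chaperones in the cytoplasm and acts in the nucleus as a transcription factor. Fkbp5 encodes FKBP51, an immunophilin that sits on the Hsp90 complex and lowers the receptor's affinity for hormone, and its induction by the receptor is a textbook negative feedback loop. Tsc22d3 encodes GILZ, a mediator of anti-inflammatory glucocorticoid action, and Sgk1 encodes a kinase that regulates ion transport. Zbtb16 encodes the transcription factor PLZF, and Cdkn1a encodes p21, an inhibitor of cyclin-dependent kinases that p53 also induces. Metallothioneins are small cysteine-rich proteins that bind zinc and copper. Mt1 and Mt2 are induced by metals through the transcription factor MTF1 and also by glucocorticoids, whereas Mt3 was first described in brain.

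Of the 8 genes, 1 (Mt3) gave a positive ratio on all 4 arrays of 8 months and 6 (Fkbp5, Tsc22d3, Mt2, Mt1, Mt3 and Sgk1) on all 4 arrays of 2 months. Over all rows tested, 5.79% were positive on all arrays of 8 months and 17.7% on all arrays of 2 months. A size rule asked for a 1.5-fold difference or more in which every array of the age kept 1 sign. At 8 months none of the 8 genes met it as higher in females, against 1.68% of all rows. At 2 months Fkbp5, Mt2, Mt1 and Tsc22d3 met it, against 2.41% of all rows. With all arrays scaled to 1 spread, 6 of the 8 met it as higher at 2 months, Mt3 and Sgk1 being added, and 1 as lower, Cdkn1a, against 5.18% of rows higher and 5.3% lower. That scaling enlarged the 2-month ratios, Fkbp5 from 0.76 to 1.25, while the 1.5-fold limit stayed fixed. Mt3, Sgk1 and Cdkn1a met the rule only after this enlargement. In whole-heart RNA, fewer cells of a type cannot be told apart from less RNA per cell. With both ages in limma, adjusted over all 7812 rows by Benjamini-Hochberg, 0 of the 8 genes and 0.0896% of all rows had an adjusted p below 0.05. At an unadjusted p below 0.05, 5 of the 8 (Fkbp5, Mt2, Mt3, Tsc22d3 and Mt1) and 3.98% of all rows were higher in females. The median of the 8 genes was 0.33 at 8 months and 0.57 at 2 months, beside -0.03 and -0.02 over all rows. The 8 genes were chosen with earlier results of these data known, so these shares and medians describe them and test nothing. The 8-month values depended on single arrays: leaving out 1 array moved Mt2 to -0.011 (without replicate 4) and up to 0.66 (without replicate 2), and Tsc22d3 to -0.0017 (without replicate 3) and up to 0.52 (without replicate 1).

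The promoter windows of Mt2, Mt1, Mt3 and Fkbp5 are shown with any match to the metal response motif marked. Sequences are RefSeq's (mouse, GRCm38.p6) and run 5′ to 3′ on the gene's strand, with 250 bases before and 50 after the annotated start. Capitals mark the core of the metal response element (MRE), searched on both strands as TGCACNC and TGCGCNC. Mt2 lay at chr8:94172368-94172667 (plus strand), Mt1 at chr8:94178839-94179138 (plus strand), Mt3 at chr8:94152357-94152656 (plus strand) and Fkbp5 at chr17:28486100-28486399 (minus strand).
Mt2: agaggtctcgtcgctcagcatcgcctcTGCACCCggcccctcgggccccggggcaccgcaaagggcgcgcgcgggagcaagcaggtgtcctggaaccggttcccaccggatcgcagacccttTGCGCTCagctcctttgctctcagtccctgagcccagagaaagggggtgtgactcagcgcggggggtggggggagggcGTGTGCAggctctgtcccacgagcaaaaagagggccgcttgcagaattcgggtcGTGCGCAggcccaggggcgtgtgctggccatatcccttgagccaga
Mt1: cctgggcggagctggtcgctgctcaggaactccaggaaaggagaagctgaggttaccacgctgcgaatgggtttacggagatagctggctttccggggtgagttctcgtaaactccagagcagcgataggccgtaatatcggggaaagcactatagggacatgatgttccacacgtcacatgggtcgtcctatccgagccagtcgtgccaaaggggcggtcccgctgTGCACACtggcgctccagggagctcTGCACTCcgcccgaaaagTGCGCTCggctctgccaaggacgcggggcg
Mt3: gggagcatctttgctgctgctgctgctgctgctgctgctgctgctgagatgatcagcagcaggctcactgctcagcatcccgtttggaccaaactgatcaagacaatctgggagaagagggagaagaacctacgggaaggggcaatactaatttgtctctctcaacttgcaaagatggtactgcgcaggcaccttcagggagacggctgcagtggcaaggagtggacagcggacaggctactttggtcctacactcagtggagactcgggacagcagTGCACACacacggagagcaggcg
Fkbp5: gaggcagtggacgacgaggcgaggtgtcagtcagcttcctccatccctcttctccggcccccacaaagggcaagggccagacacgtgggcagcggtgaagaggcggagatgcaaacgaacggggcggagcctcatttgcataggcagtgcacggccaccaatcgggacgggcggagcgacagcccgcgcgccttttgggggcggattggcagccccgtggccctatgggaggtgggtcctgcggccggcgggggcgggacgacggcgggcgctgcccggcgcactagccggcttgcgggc
The Mt2 window held 4 MRE cores, and 0.517% of the 32851 promoter windows in the table held at least 4. The Mt1 window held 3, a number reached by 1.97% of all windows, and the Mt3 window held 1, where 25.7% of all windows held at least 1. The Fkbp5 window held none, and a core was also found in 1 of the Sgk1 windows. On chromosome 8 the order of the genes is Mt4, Mt3, the long noncoding Gm39227, Mt2 and Mt1.

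The same windows were searched on both strands for the glucocorticoid response element (GRE), as the half-site AGAACA and as the palindrome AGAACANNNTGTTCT, which contains the half-site on each strand. Of the 8 genes, 7 had windows in the table, 15 in all, and Zbtb16 is named only. A half-site was found in 4 of the 15 windows, which belonged to Sgk1 and Tsc22d3, and in 19% of all windows. One of the 6 annotated starts of Sgk1 carried the palindrome, which 3 of the 32851 windows held. That stretch, chr10:21993661-21993760 (plus strand), is printed with the palindrome in capitals.
Sgk1: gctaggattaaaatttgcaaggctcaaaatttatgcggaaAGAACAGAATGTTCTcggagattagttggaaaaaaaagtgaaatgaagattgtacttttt
Neither GRE form was found in the windows of Fkbp5, Mt1, Mt2, Mt3 or Cdkn1a. Well-studied hormone response elements of human FKBP5 lie in introns, outside a window of this kind. A match or its absence describes the letters of the window alone.

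**Figure D1:**
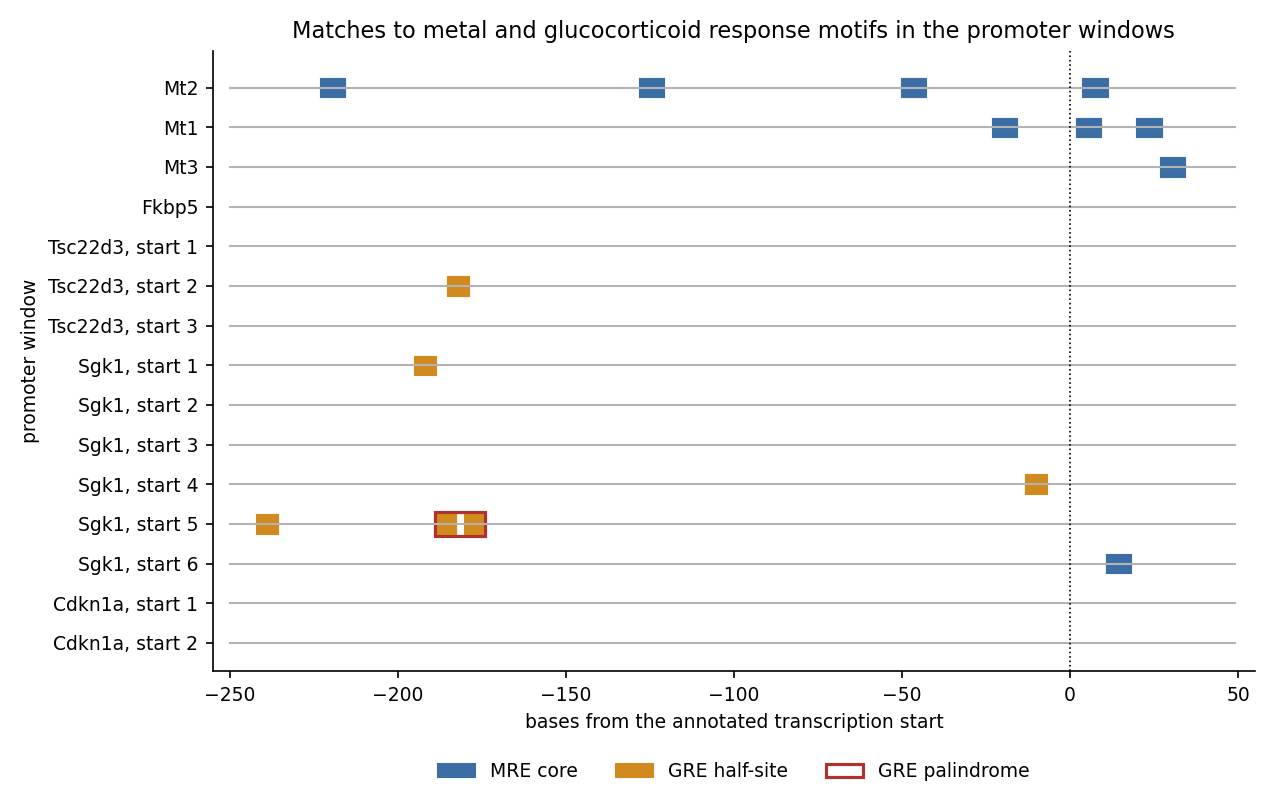
Matches to the 3 motifs in the 300-base windows of 7 genes, by distance in bases from the annotated start (dotted line); genes with several annotated starts have 1 line each. Mt2 holds 4 MRE cores, Mt1 3 and Mt3 1, and the GRE palindrome lies in the window of 1 Sgk1 start.

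Fkbp5 read -0.24, 1.12, 0.71 and 0.53 on replicates 1 to 4 of 8 months, and 0.91, 0.71, 0.83 and 0.60 on those of 2 months. It was positive on 7 of 8 arrays, replicate 1 of 8 months was the array below 0, and the 8-month arrays spanned the whole range of those of 2 months. The age values were 0.53 ± 0.57 at 8 months and 0.76 ± 0.14 at 2 months (SD over 4 arrays), the second a 1.70-fold ratio. Over both ages Fkbp5 was at 0.65 ± 0.13 (SE, n = 2 pairs of pools), with an adjusted p of 0.253 and an unadjusted p of 0.00299 in limma, and ranked 103 from the top of 7812 rows. Without replicate 1 of 8 months Fkbp5 was at 0.76 with an adjusted p of 0.026 in limma, a setting in which 95 rows were called for female over male over both ages.

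Tsc22d3 read -0.72, 1.21, 0.32 and 0.22 on replicates 1 to 4 of 8 months, and 0.83, 0.73, 0.86 and 0.74 on those of 2 months. The 2-month arrays lay within 0.73 to 0.86, while the 8-month arrays ran from below 0 to above every 2-month array. The values were 0.26 ± 0.79 at 8 months and 0.79 ± 0.07 at 2 months (SD over 4 arrays), and the 1.73-fold ratio at 2 months was the largest of the 8 genes. Over both ages limma gave 0.52 ± 0.17 (SE, n = 2 pairs of pools) with an adjusted p of 0.385. Fkbp5 minus Tsc22d3 was 0.27 ± 0.25 at 8 months and -0.03 ± 0.09 at 2 months (SD over 4 arrays).

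Sgk1 read 0.44, -0.60, 0.26 and -0.03 on replicates 1 to 4 of 8 months, and 0.42, 0.51, 0.45 and 0.37 on those of 2 months. The 2-month arrays were all positive and close together, and those of 8 months lay on both sides of 0. Its values of 0.02 ± 0.46 at 8 months and 0.44 ± 0.06 at 2 months (SD over 4 arrays) correspond to 1.01-fold and 1.35-fold, below the size rule at both ages. With all arrays scaled to 1 spread, which enlarged the 2-month ratios, Sgk1 was at 0.12 at 8 months and 0.71 at 2 months. The second value was past the unchanged limit of the rule. Over both ages limma gave 0.23 ± 0.15 (SE, n = 2 pairs of pools) and an adjusted p of 0.693.

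Mt2 read 1.23, -0.78, 0.30 and 0.55 on replicates 1 to 4 of 8 months, and 0.70, 0.74, 0.65 and 0.90 on those of 2 months. It was positive on 7 of 8 arrays, and replicates 1 and 2 of 8 months lay outside the range of all others. The values were 0.32 ± 0.84 at 8 months and 0.75 ± 0.11 at 2 months (SD over 4 arrays), the second a 1.68-fold ratio. Over both ages Mt2 was at 0.54 ± 0.15 (SE, n = 2 pairs of pools), with an adjusted p of 0.361 and an unadjusted p of 0.0127 in limma.

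Mt1 read 0.80, -0.01, -0.18 and 0.20 on replicates 1 to 4 of 8 months, and 0.51, 0.72, 0.41 and 0.91 on those of 2 months. All 2-month arrays were positive, and 3 of the 8-month arrays lay below them. Mt1 averaged 0.20 ± 0.43 at 8 months and 0.64 ± 0.22 at 2 months (SD over 4 arrays), and limma gave an adjusted p of 0.450 over both ages. Mt3 read 0.38, 0.69, 0.02 and 0.33 on replicates 1 to 4 of 8 months, and 0.39, 0.51, 0.51 and 0.61 on those of 2 months. It was the one gene of the 8 with a positive ratio on all 8 arrays, although replicate 3 of 8 months was near 0. Mt3 averaged 0.35 ± 0.28 at 8 months and 0.51 ± 0.09 at 2 months (SD over 4 arrays), and over both ages was at 0.43 ± 0.13 (SE, n = 2 pairs of pools) with an adjusted p of 0.365 in limma.

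The metallothionein family has 4 genes in mouse, of which 3 were measured, and all 3 had an unadjusted p below 0.05 in limma. At 2 months Mt2 minus Mt1 was 0.11 ± 0.12 (SD over 4 arrays), a difference within the spread between arrays. Mt2 minus Mt3 was 0.24 ± 0.07 and positive on 4 of 4 arrays. At 8 months both differences, 0.12 ± 0.60 and -0.03 ± 1.00, were smaller than their spread. Mt1 and Mt2 have closely related sequences, and whether RNA of one binds the cDNA probe of the other was not tested.

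Zbtb16 read -0.04, 0.89, 0.78 and -0.25 on replicates 1 to 4 of 8 months, and -0.26, -0.93, 0.26 and -1.11 on those of 2 months. Both ages had arrays on either side of 0. The 2-month arrays split by dye, with a mean of 0.00 where the female pool carried Cy3 and -1.02 where it carried Cy5. Smaller splits by dye were seen at 2 months in other genes of the 8. Cdkn1a had means of -0.02 (Cy3, replicate 1 alone) and -0.70 (Cy5). Fkbp5 had means of 0.87 (Cy3) and 0.65 (Cy5), and Mt1 of 0.46 and 0.82. The values of Zbtb16 were 0.34 ± 0.58 at 8 months and -0.51 ± 0.63 at 2 months (SD over 4 arrays), and limma gave an adjusted p of 0.943 over both ages.

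Cdkn1a read 1.68, -0.78, 0.68 and 0.69 on replicates 1 to 4 of 8 months, and -0.02, -0.99 and -0.40 on replicates 1, 2 and 4 of 2 months, with no value on replicate 3. At 8 months 3 of the 4 arrays were positive, and at 2 months none of the 3 was. The values were 0.57 ± 1.01 at 8 months (SD over 4 arrays) and -0.36 ± 0.48 at 2 months (SD over 3 arrays), with an adjusted p of 0.926 over both ages in limma.

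**Figure D2:**
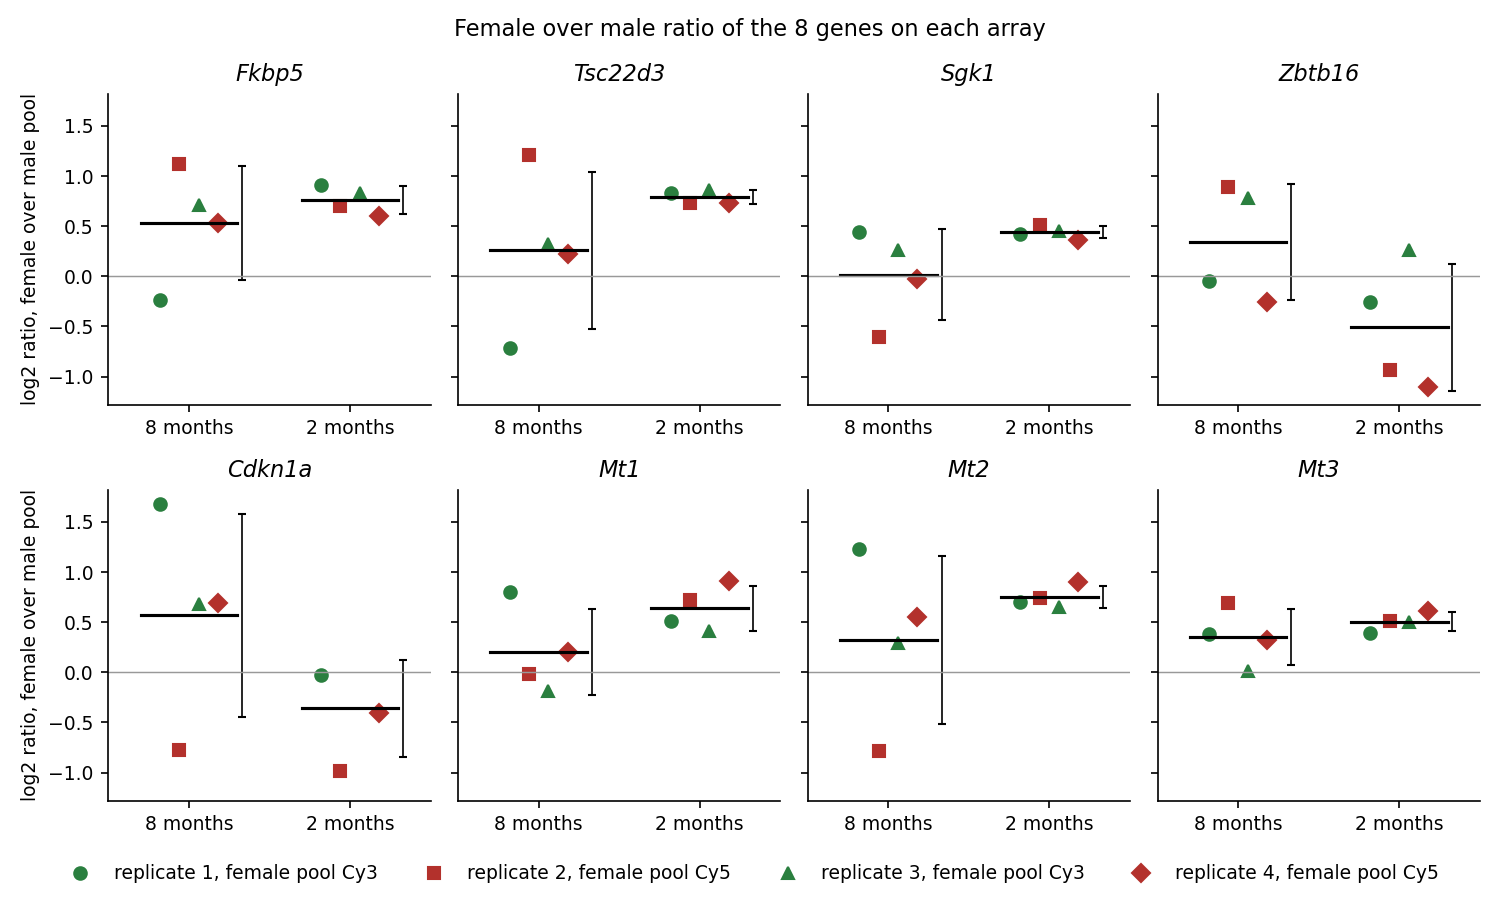
Log2 ratio of female over male for each of the 8 genes on each array (points, coloured by the dye of the female pool), with the value of the age (bar) and the SD over its arrays (whisker), 8 months left of 2 months. The 2-month points of Fkbp5, Tsc22d3, Sgk1, Mt1, Mt2 and Mt3 all lie above 0, and replicates 1 and 2 of 8 months lie apart on opposite sides for Fkbp5, Tsc22d3, Mt2 and Cdkn1a.

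At 2 months the order of the ratios was Tsc22d3 at 0.79, Fkbp5 at 0.76, Mt2 at 0.75, Mt1 at 0.64, Mt3 at 0.51, Sgk1 at 0.44, Cdkn1a at -0.36 and Zbtb16 at -0.51. The arrays of Tsc22d3 and Fkbp5 overlapped, as did those of Fkbp5 and Mt2, of Mt2 and Mt1, of Mt1 and Mt3, of Mt3 and Sgk1, and of Cdkn1a and Zbtb16. Sgk1 and Cdkn1a did not overlap. At 8 months the order was Cdkn1a at 0.57, Fkbp5 at 0.53, Mt3 at 0.35, Zbtb16 at 0.34, Mt2 at 0.32, Tsc22d3 at 0.26, Mt1 at 0.20 and Sgk1 at 0.02, and the arrays of each pair of neighbours overlapped.

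The 8-month values of these genes rest on 2 pairs of unlike arrays. On replicates 1 and 2 of 8 months the ratios of all probes bent along the feature number (the number each probe carries on the array), with a trend whose SD was 0.51 and 0.81. On the other 6 arrays it was 0.025 to 0.070. The interquartile range of all ratios was 1.18 and 1.56 on those arrays and 0.30 to 0.46 on the others. As female over male ratios, the bend ran in opposite directions on the 2 arrays, which had opposite dye orientations. As Cy5 over Cy3, before the turn to female over male, it ran in the same direction on both.

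The 8 probes lay at different heights of this bend. At the Fkbp5 probe, feature 13412, the trend stood at -1.21 on replicate 1 and 1.05 on replicate 2 of 8 months. At the Mt2 probe, feature 6495, it stood at 0.54 and -1.12 on the same arrays. Fkbp5 and Tsc22d3 read low on replicate 1 and high on replicate 2, and Mt2, Sgk1 and Cdkn1a the other way round, as the trend did at each of those 5 probes. Zbtb16 and Mt3 read higher on replicate 2 than on replicate 1, again as the trend did. Mt1 ran against it, with readings of 0.80 and -0.01 where the trend stood at -0.12 and 0.74.

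**Figure D3:**
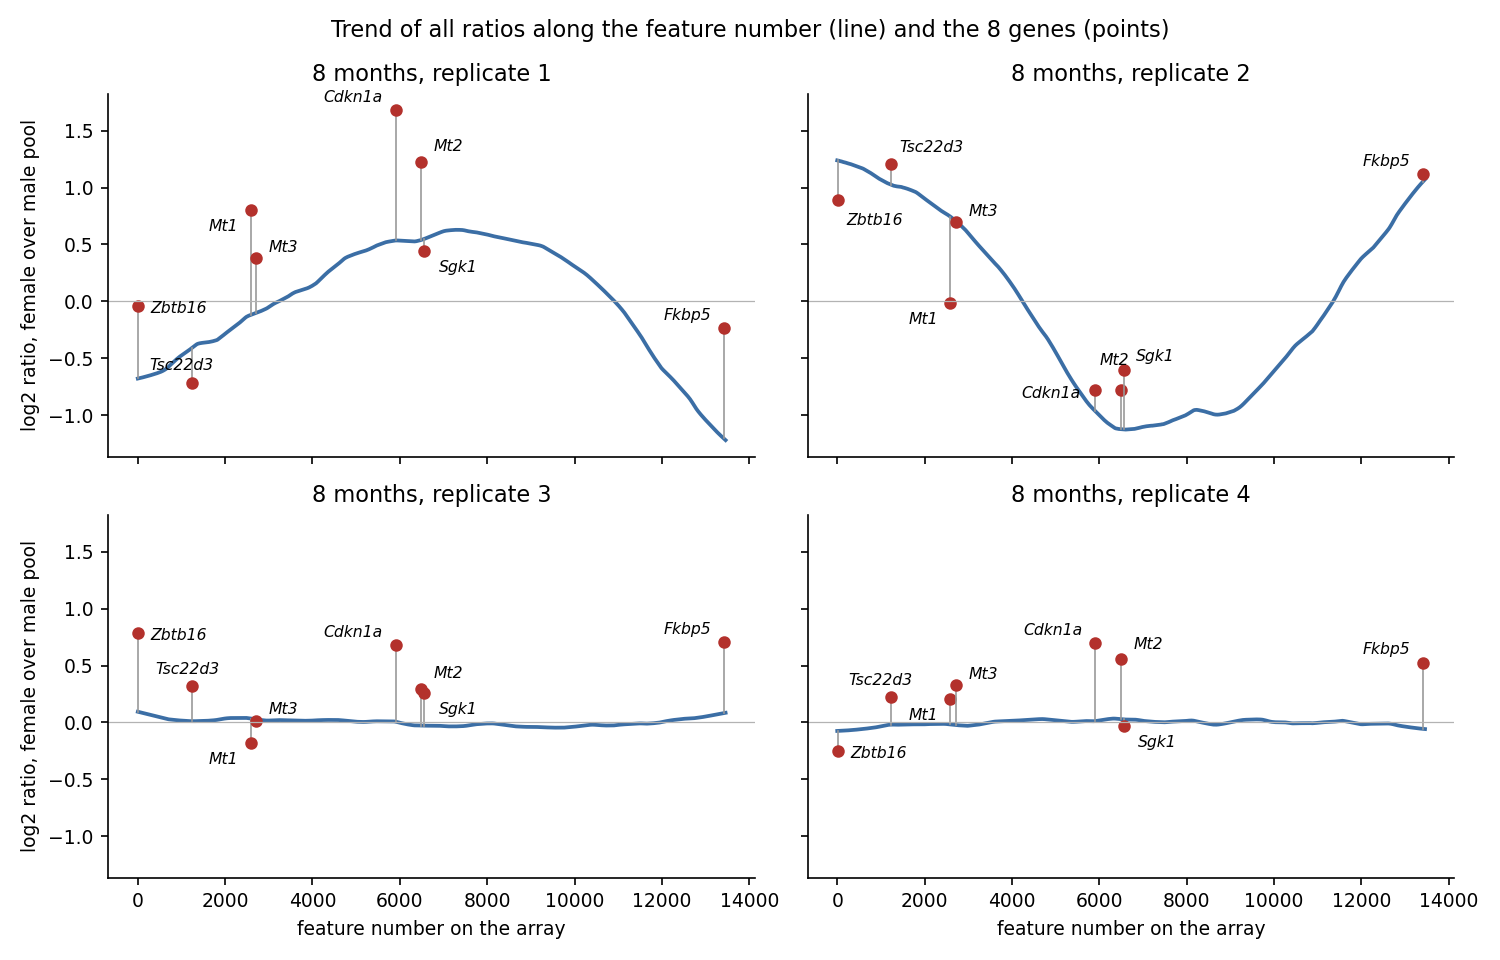
Lowess trend of all log2 ratios (female over male) along the feature number on each 8-month array (line), with the 8 genes at their probe positions (points) and their distance from the trend (grey). The line ranges from -1.23 to 0.63 on replicate 1 and from -1.13 to 1.24 on replicate 2, and stays near 0 on replicates 3 and 4, where Fkbp5 and Cdkn1a lie between 0.53 and 0.71.

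With the trend removed, Fkbp5 read 0.97, 0.07, 0.62 and 0.58 on replicates 1 to 4 of 8 months, and Mt2 read 0.69, 0.34, 0.32 and 0.53. Both were then positive on all 8-month arrays, as was Cdkn1a at 1.15, 0.19, 0.67 and 0.68, and 10.2% of all rows were. Fkbp5 averaged 0.56 ± 0.37 and Mt2 0.47 ± 0.17 (SD over 4 arrays), a narrower spread than before. The spread of Mt1 grew to 0.71, with a mean of 0.04. Mt3 was then at 0.20 and positive on 2 of the 4 arrays of 8 months, at 0.48, -0.016, -0.011 and 0.35, so that none of the 8 genes but Fkbp5, Mt2 and Cdkn1a was positive on all of them.

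Cdkn1a, at 0.67 after removal, was the one of the 8 genes that met the size rule at 8 months, against 1.83% of all rows. Its 8-month arrays then lay above all its 2-month arrays, a difference of 1.00 between the ages that 2.15% of rows matched by the same rule, at least 1.5-fold higher with no overlap. Tsc22d3 read -0.30, 0.18, 0.31 and 0.24 after removal and lay below all its 2-month arrays, a difference of -0.67, and 2.57% of rows did so by that rule. Without removal none of the 8 genes met the rule in either direction, against 1.57% of rows higher and 1.72% lower at 8 months.

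From replicates 3 and 4 alone, the arrays with no bend, Fkbp5 was at 0.62 and Cdkn1a at 0.69 at 8 months and both met the size rule, against 2.02% of the rows. Mt2 was at 0.42, Tsc22d3 at 0.27, Mt3 at 0.17, Sgk1 at 0.12 and Mt1 at 0.01. Cdkn1a was higher at 8 than at 2 months with no overlap, by 1.05, beside 3.29% of rows, and Mt1 was lower, by -0.63, beside 2.63%. Under all 3 treatments of the 8-month arrays, 6 of the 8 genes had a smaller ratio at 8 than at 2 months, the exceptions being Zbtb16 and Cdkn1a. Over all rows the share with a smaller value at 8 months was 52.9% as deposited, 52.8% with the trend removed and 47.3% from replicates 3 and 4. With 1 pair of pools per age these differences could not be tested.

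The genes nearest to Fkbp5 over the 8 arrays were Il17ra, Pcx, Tsc22d3, Ikbke and Stambpl1, at root mean square differences of 0.20, 0.24, 0.25, 0.28 and 0.28 (log2), among 5633 named genes with a median of 0.87. Mt3 came 58th and Mt2 2860th, at 0.87. Nearest to Mt2 were C8a, Ddx3x, Marcksl1, Rassf5 and Pstpip1, at 0.20, 0.22, 0.24, 0.25 and 0.27, with a median of 0.89 over the same genes. Mt1 came 31st, at 0.39, and Sgk1 56th, at 0.43. These distances include the bend of replicates 1 and 2 of 8 months, which probes at like feature numbers share.

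Other genes of the pathway gave mixed ratios. Of 51 genes known to be induced by glucocorticoids 26 were measured, and apart from the 8 genes followed here 19 were. None of the 19 was called by limma, 2 were higher and 3 lower in females at an unadjusted p below 0.05, and their median was 0.07 over both ages, beside -0.02 over all rows. Pdk4, a kinase that restrains pyruvate oxidation, was at -0.75 at 8 months and -1.64 at 2 months, and met the size rule as lower at both ages. Lcn2, the siderophore-binding lipocalin-2, was at 2.43 at 8 months and 0.05 at 2 months. Nfkbia, the inhibitor of NF-kB, was at 0.08 and 0.71, Glul, glutamine synthetase, at -0.10 and 0.62, and Klf15, a transcription factor of metabolism, at -0.02 and 0.58 at 8 and 2 months. Of the 19, 2 met the size rule as higher at 2 months, Nfkbia and Glul, and 2 as lower, Pdk4 and Ptgds, a prostaglandin D synthase at 1.59 and -0.72. Tgm2, a transglutaminase, was at -0.74 and -1.29 with arrays on both sides of 0 at both ages.

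Of 22 genes of the receptor and its chaperones 14 were measured, with a median of -0.11 at 8 months and 0.10 at 2 months. Nr3c1, the receptor itself, was at -0.40 at 8 months and 0.11 at 2 months. Hsd11b1, the enzyme that regenerates active glucocorticoid, was at -0.87 at 8 months, where it met the size rule as lower, and at 0.27 at 2 months, with no overlap between the arrays of the ages. Fkbp4, which encodes the FKBP family protein FKBP52, was at -0.39 and -0.41, and the coactivator Ncoa2 at -0.54 and -0.43 at 8 and 2 months. Both had an unadjusted p below 0.05, 0.0183 for Fkbp4 and 0.00873 for Ncoa2, and neither was called.

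Among 10 measured genes of the FKBP family Fkbp5 alone was higher and Fkbp4 alone lower in females at an unadjusted p below 0.05. The median of the family was 0.03 at 8 months and -0.03 at 2 months. The TSC22 and SGK relatives and partners, 11 measured of 16, had medians of -0.08 and -0.01, and Tsc22d3 was their one gene at an unadjusted p below 0.05. For 17 measured genes of zinc and copper handling the medians were -0.08 and -0.09. Mtf1, the metal-responsive activator of Mt1 and Mt2, was at -0.40 at 8 months and -0.66 at 2 months.

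Inflammatory genes that glucocorticoids are known to repress had 12 measured of 22 and medians of 0.25 at 8 months and -0.26 at 2 months. At 8 months 5 of them met the size rule as higher, led by the chemokine Ccl7 at 1.40 and the cytokine Il1b at 1.39, and 2 met it as lower at 2 months. The acute phase and oxidative stress genes, 17 measured of 24, had medians of 0.07 at 8 months and -0.01 at 2 months. By the size rule 5 of these were higher and 1 lower at 8 months, and 2 were higher and 1 lower at 2 months. Lcn2 was at 2.43 and Saa3 at 1.69 at 8 months, and at 0.05 and -0.39 at 2 months. Orm1, an acute phase plasma protein, was at 0.77 and 1.23, and Orm2 at 0.66 and 0.89. Apcs, the serum amyloid P component, was at -1.14 and -1.21 and met the size rule as lower at both ages, with an adjusted p of 0.0798 in limma. For 19 measured genes of Cdk inhibition and the p53 response, the list of Cdkn1a, the medians were -0.15 and -0.11. No gene of these lists was called by limma.

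**Figure D4:**
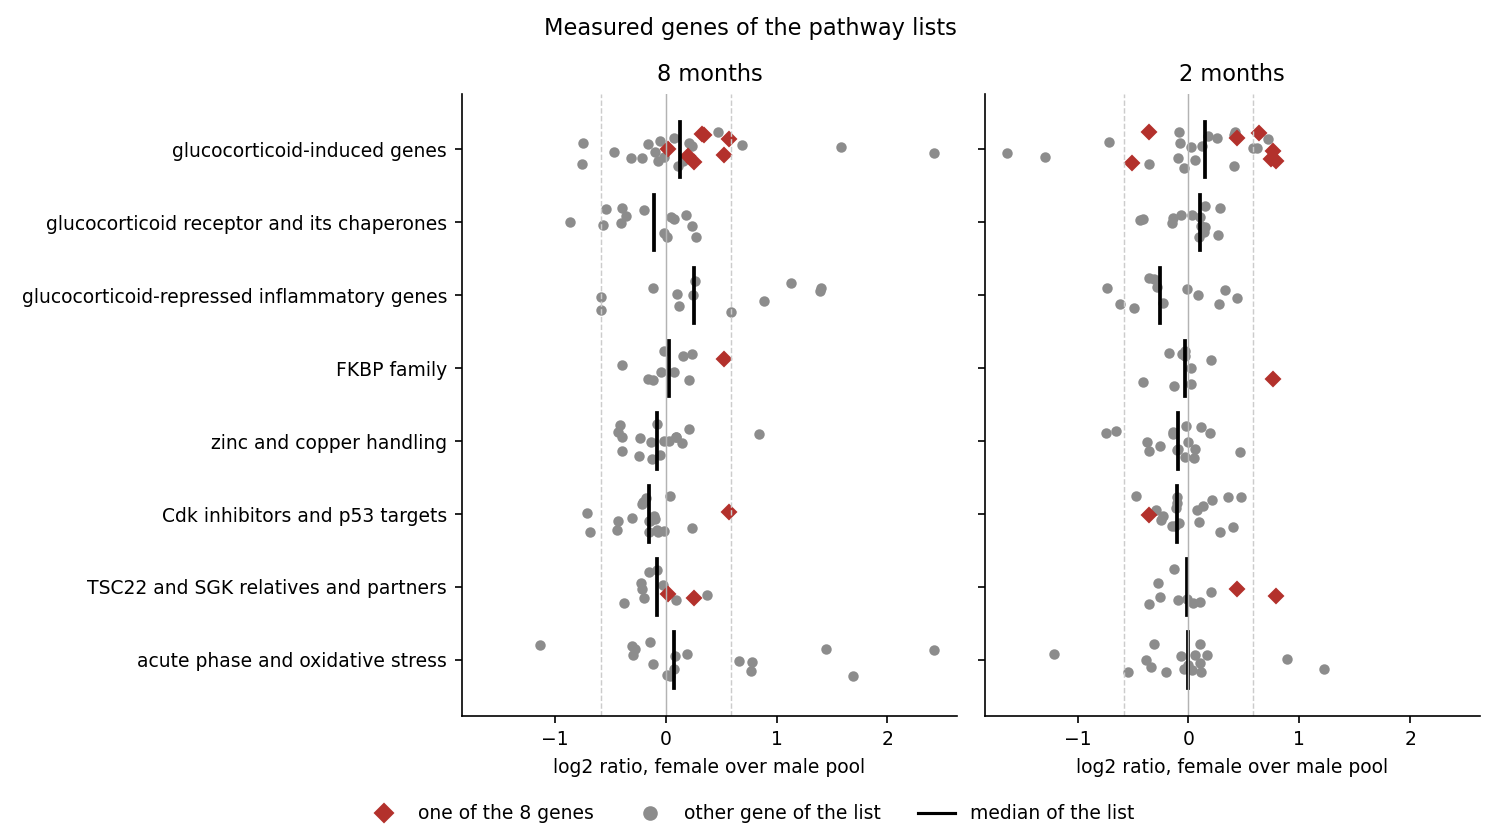
Log2 ratio of female over male for every measured gene of 8 pathway lists at 8 months (left) and 2 months (right), with the list median (black bar); diamonds are genes of the 8 and dashed lines mark 1.5-fold. At 2 months Fkbp5 stands apart from the rest of its family at 0.76, and the inflammatory list has a median of 0.25 at 8 months and -0.26 at 2 months.

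Markers of other cell types also differed between the pools, in either direction. Of 11 measured thymocyte and lymphocyte markers, 8 met the size rule as higher in females at 2 months, with a median of 2.33 and a range of -0.60 to 4.48, against a median of 0.02 and a range of -0.31 to 1.15 at 8 months. Rag1, the recombinase of immature lymphocytes, was at 1.15 at 8 months and 4.48 at 2 months. The 6 white adipocyte markers had a median of -0.22 at 8 months and 1.52 at 2 months, with 4 past the size rule at 2 months. The 4 brown adipocyte markers had medians of -0.07 at 8 months and -0.08 at 2 months. Of them Ucp1, the defining gene of brown fat, was at 0.34 and 2.99, and the other three lay between -0.23 and -0.07 at 2 months. All 3 lung epithelium markers met the rule at 2 months, with Sftpc at 3.12 at 8 months and 1.76 at 2 months. The macrophage markers, 10 measured, had medians of 0.19 at 8 months and -0.47 at 2 months, the 8 endothelial markers -0.32 and -0.15, and the 8 cardiomyocyte markers -0.31 and -0.01. The part of other tissue in the ratios of the 8 genes was not tested, and the deposited ratios give no level at which a marker could be called absent. The sex-linked Xist, Kdm5d and Eif2s3y were at 2.94, -2.66 and -2.52 over both ages, each with 1 sign on all 8 arrays. Sex-linked probes had set the direction of the ratios, so these signs checked only that the labelled dyes matched between arrays.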

How the data were processed

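Heart RNA pools were compared on 8 two-colour cDNA arrays, and the members and gene lists were chosen with earlier results of these data known. The deposited values are log10 ratios made by the authors with Agilent Feature Extraction 7.1.1, per the labels, with further normalization and the build not given in the sources used here. Sex-linked probes gave the direction, Cy5 over Cy3. The values were converted to log2, turned to female over male by the labelled dyes, and averaged over rows of 1 symbol, and an exact 0 (6.38 to 13.9% of values per array) was taken as no measurement. Of 9607 rows, 7812 had values on at least 3 of 4 arrays per age in both dye orientations, 5851 of them named through the platform annotation and RefSeq (GRCm38.p6).

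An age value weights both dye orientations equally. Over both ages, limma 3.58.1 (R 4.3.3, lmFit and eBayes, two-sided) was fitted to the 2 age values of each row, with 1 residual degree of freedom, and an adjusted p below 0.05 was called. Within an age no test was made: a row met the size rule at 1.5-fold with 1 sign on every array. The ages were compared by a difference of at least 1.5-fold with no overlap of arrays. A trend along the feature number was estimated by lowess with a span of 0.1. Without intensities no signal could be set against background, and precision was limited by having 1 pair of pools per age. Pools and arrays show no spread between animals. The limma p-values and SE rest on the spread between 2 pairs of pools, which differ in age. With 1 residual degree of freedom they also rest on the variance prior that all rows share. Alternatives changed the treatment of 0, centring, scaling, the trend, the filter, probe averaging, the median and each array.

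Genes beyond the 8 were named by rule: all measured metallothionein, FKBP and sex-linked genes, up to 6 per other list and 2 per cell type list by size over both ages, and the 5 nearest to Fkbp5 and to Mt2. Nr3c1, Nfkbia, Glul and Klf15 were named after their values were seen.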

Additional observations from a re-analysis of the deposited data

Results flagged for a closer look

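Of the genes named from the pathway lists, 4 had ratios of one sign on every 8-month array and the opposite sign on every 2-month array. The share of all rows with such a change of sign was not counted. All 4 met the rule of a 1.5-fold difference with no overlap, which 1.57% of all rows met as higher and 1.72% as lower at 8 months. The difference of 8 minus 2 months was 2.31 for Ptgds, a prostaglandin D synthase induced by glucocorticoids (1.59 at 8 months, -0.72 at 2 months). It was 2.02 for the chemokine Ccl7 (1.40 at 8 months, -0.61 at 2 months) and 1.49 for the chemokine Ccl2 (1.13 at 8 months, -0.36 at 2 months). For the nuclear receptor corepressor Nrip1 it was -0.71 (-0.56 at 8 months, 0.15 at 2 months), on the mean of 2 probes that did not each keep one sign. These differences were not tested, since each age has 1 pair of pools. With all arrays as deposited, none of the 8 genes followed here had such a change of sign. From replicates 3 and 4 of 8 months alone Cdkn1a did, at 0.68 to 0.69 at 8 months and -0.99 to -0.02 at 2 months.

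In 2 of 178 groups of 4 arrays, over 90 named genes, 1 array stood apart from the other three, where chance gives about 1 in 20. The copper transporter Slc31a2 read -1.27 on replicate 2 of 8 months, with the others between -0.21 and -0.03. The cyclin Ccne1 read -2.0 on replicate 1 of 8 months, with the others between -0.44 and -0.20. Both are the arrays with the bend along the feature number.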

How the results depend on the processing

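For female over male over both ages limma called 7 rows, and 0 with an exact 0 kept, 3 with arrays scaled to 1 spread, 4 with the trend removed, 1 from replicates 3 and 4 of 8 months, 1 with the median over arrays and 4 to 104 leaving out 1 array (95 without replicate 1 and 104 without replicate 4 of 8 months, 4 without replicate 4 of 2 months). Counts from 1 residual degree of freedom rest on the variance prior. Of the 8 genes, 0 were called except without replicate 1 of 8 months, where Fkbp5 was, at 0.76 with an adjusted p of 0.026; over 16 alternatives Fkbp5 ran from 0.53 to 0.95, with adjusted p of 0.026 to 0.645. Mt2 ran from 0.37 to 0.83, Mt1 from 0.30 to 0.55, Mt3 from 0.34 to 0.53, Tsc22d3 from 0.39 to 0.77 and Sgk1 from 0.16 to 0.42, all positive over both ages. At 8 months alone Fkbp5 ran from 0.29 to 0.76 and Mt3 from 0.17 to 0.45, both positive throughout. Mt2, Tsc22d3, Mt1 and Sgk1 changed sign at that age. Mt2 ran from -0.011 to 0.66 and Tsc22d3 from -0.0017 to 0.52. Mt1 ran from -0.045 (without replicate 1) to 0.45 and Sgk1 from -0.13 (without replicate 4) to 0.16. Scaling enlarged the 2-month ratios while the 1.5-fold limit stayed fixed. It moved the 2-month values to 1.25 for Fkbp5, 1.27 for Tsc22d3, 1.19 for Mt2, 1.01 for Mt1, 0.80 for Mt3 and 0.71 for Sgk1. For female over male at 8 months the size rule counted 233 rows and 348 to 520 leaving out 1 array (350, 520 and 455 without replicates 1, 3 and 4), and for female over male at 2 months 326 rows, 819 with scaling. For 8 months minus 2 months the rule counted 257 rows, 449 with scaling, 455 from replicates 3 and 4 and 279 to 470 leaving out 1 array (470, 440, 386 and 399 without replicates 1 to 4 of 8 months). Both rules set a condition on every array, which is easier to meet with fewer arrays, so these larger counts do not single out an array. Signs near 0 turned: Zbtb16 to 0.02 and 0.060 without replicates 1 and 4 of 8 months (range -0.23 to 0.06), Cdkn1a to -0.02 and -0.079 without the same arrays (range -0.079 to 0.29). Among other genes Fkbp3 turned to 0.0072, Fkbp7 to 0.032 and Fkbpl to -0.027 with the trend removed. From replicates 3 and 4 these stood at 0.0048, 0.019 and -0.055, with Akt1 at 0.057 and Apob at -0.042. With the median over arrays they stood at 0.0031, 0.025 and -0.050. With scaling Fkbp7 stood at 0.012, Fkbpl at -0.043, Akt1 at 0.0036 and Apob at -0.028. Leaving out 1 array turned Fkbp1b (-0.16 to 0.14), Fkbp3 (-0.089 to 0.014), Fkbp7 (-0.20 to 0.19), Fkbpl (-0.071 at the lowest), Sgk2 (-0.53 to 0.047), Ttr (-0.031 to 0.38) and Apob (-0.063 to 0.25). The cause of these changes was not tested. No paired analysis was possible because the arrays of an age carry the same pools and are averaged before the fit, so a replicate number pairs nothing. Signal over background is unknown.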
